A study of Mus musculus with 20 samples.

Results

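Mirtrons are miRNA hairpins that fill a short intron from end to end. In the canonical route, Drosha cuts the hairpin out of a longer transcript, whereas a mirtron is released by splicing and debranching and then goes to exportin-5 and Dicer like other precursors. Its 5p arm therefore begins with the splice donor and its 3p arm finishes with the splice acceptor, and the 3′ end of the precursor is a known substrate for uridylating enzymes. The hairpins described here were chosen from the mouse GENCODE annotation by position and depth: both ends lie within 10 nt of the 2 ends of 1 same-strand intron, and at least 20 reads of 18 to 26 nt match without mismatch over all libraries. Of 1180 annotated miRNA hairpins used, 29 met the position rule and 15 of these had enough reads; 631 hairpins in all had at least 20 reads.

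The data are 20 libraries of small RNA from cultured mouse bone marrow, with 1 library for each combination of cell type, genotype and stimulus. GM-CSF was used to grow the dendritic cells and M-CSF the macrophages, from C57BL/6 wild-type mice or from mir-155-/- mice (B6.Cg-Mir155tm1.1Rsky/J), which lack miR-155 in every cell; the mice were 8 to 12 weeks old. Each of the 4 cultures was left unstimulated (called immature for dendritic cells) or was given LPS, oxLDL, eLDL or LDL. Dendritic cells received 200 ng/ml LPS overnight at day 8 to 9; for macrophages and lipoproteins the sources used here give no dose or time. The labels do not say whether libraries came from separate mice or cultures, so p-values measure the scatter between these libraries only.

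Depth ran from 10.3 M to 22.8 M reads per library (M, 1000000 reads), of which 5.14 M to 11.8 M matched miRNA hairpins. The targeted miR-155-5p stood at 128 to 9521 CPM (counts per 1000000 hairpin reads) in wild-type and 0.307 to 0.782 CPM in knockout dendritic cells, and at 5324 to 39693 CPM in wild-type and 3.92 to 5.87 CPM in knockout macrophages. The 3 myeloid markers (miR-223-3p and both miR-142a arms) summed to 16651 to 32286 CPM in every library, and 11 detected markers of other cell types to 85.4 to 426 CPM. In macrophage libraries 6.84 to 7.18% of reads held an undetermined base, nearly always at base 20, against 0.125 to 0.133% in dendritic cell libraries. Such reads cannot match a hairpin, and cell type and this feature of the sequencing cannot be told apart.

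The mirtron reads were very unevenly spread over the hairpins. Mir1981, in an intron of Marc2 (a mitochondrial amidoxime-reducing enzyme), had 45341 reads, or 74.4% of all mirtron reads. Mir877, in Abcf1 (an ABC-family protein that acts in translation), had 10675 reads, and Mir7068, in Cherp (a protein of calcium homeostasis and splicing), had 2833. The other 12 had between 25 and 566 reads: Mir6970 (566; Skiv2l, an exosome-associated helicase), Mir7091 (313; Dnase1l1), Mir702 (312; Plod3, a lysyl hydroxylase), Mir1982 (267; Oaz1, ornithine decarboxylase antizyme), Mir6944 (253; Dbn1, the actin-binding drebrin), Mir1231 (115; Nav1), Mir7034 (98; Tmem120a), Mir3102 (95; Arhgef17), Gm27471 (75; Skiv2l-ps1), Mir3062 (52; Pfas, a purine synthesis enzyme), Mir7082 (37; Raver1) and Mir7032 (25; Hip1r). Mir6970 and Gm27471 are near-copies: 492 of the reads of Mir6970 but only 1 read of Gm27471 matched no other hairpin, so Gm27471 has no evidence of its own beyond that read. Together the mirtrons made up 0.0385% of hairpin reads.

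The whole hairpins of the leading 3 are shown first because they carry most reads; the capitals mark the first and last 2 bases of the intron, the GT donor and the AG acceptor. Mir1981 lies at chr1:184822407-184822488, Mir877 at chr17:35960730-35960814 and Mir7068 at chr8:72470016-72470089 (GRCm38, all on the minus strand), and each is the whole intron, 82, 85 and 74 bases long.
Mir1981: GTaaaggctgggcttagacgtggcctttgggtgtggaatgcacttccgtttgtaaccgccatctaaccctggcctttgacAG
Mir877: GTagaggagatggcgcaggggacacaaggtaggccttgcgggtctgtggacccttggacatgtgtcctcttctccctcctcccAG
Mir7068: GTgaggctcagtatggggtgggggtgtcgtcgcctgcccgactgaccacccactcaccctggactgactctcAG

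RefSeq (GRCm38.p6) holds 28 mature sequences for 13 of the 15 hairpins. Of these, 7 start exactly at the first intron base, so the second base of the donor is the first base of the seed (bases 2 to 8, in capitals), the part that pairs with targets. All of them open with GU, 3 as GUA and 4 as GUGAG. These are annotated forms: miR-3102-5p and miR-7068-5p had only 6 exact reads each over all libraries, and miR-6944-5p was not detected among exact reads.
miR-1981-5p: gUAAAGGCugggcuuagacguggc
miR-877-5p: gUAGAGGAgauggcgcaggg
miR-7091-5p: gUAGGGGUgauagauuccauggc
miR-702-5p: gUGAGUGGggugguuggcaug
miR-3102-5p: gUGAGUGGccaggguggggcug
miR-6944-5p: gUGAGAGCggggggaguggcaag
miR-7068-5p: gUGAGGCUcaguauggggugg
miR-702-5p and miR-3102-5p share the seed UGAGUGG, which no other mature mouse miRNA in the table has, and each of the other 5 seeds belongs to 1 miRNA alone among 1738 mature entries.

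The 3p arms that the results turn on have no such common start, because their seeds lie inside the intron and the acceptor is at the other end. Their mature forms are printed with the seed in capitals.
miR-1981-3p: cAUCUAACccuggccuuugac
miR-877-3p: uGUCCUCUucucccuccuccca
miR-7068-3p: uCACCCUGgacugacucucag
miR-6944-3p: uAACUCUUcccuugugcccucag
miR-7091-3p: aGUGGCUUcugucgucucuag
The seed of miR-7068-3p, CACCCUG, is shared with miR-7018-3p and miR-7023-3p. The intron of Mir7018 in Hspg2 also meets the position rule and had 0 reads, which allows up to 3 reads over all libraries.

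The 5p reads kept the splice donor as their 5′ end. For miR-1981-5p 99.8% of 43592 exact reads started at intron base 1, with 98.75 to 100% in the single libraries. For miR-877-5p the share was 93.1% of 9179 reads (80.5 to 97.8% over the libraries), for miR-702-5p 97.2% of 215 and for miR-7091-5p 96.7% of 181. Mir702 is annotated from 9 nt upstream of its intron, in the exon of Plod3, yet its reads began at the intron. miR-6970-5p was the mixed case, with 47.6% of 492 reads at intron base 1 and 33.5% of the reads starting at base 6.

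The 3p reads ended at or just before the acceptor. The last intron base was the 3′ end of 71.3% of 2827 exact miR-7068-3p reads, 69.6% of 253 miR-6944-3p reads and 66.7% of 132 miR-7091-3p reads. In miR-1981-3p, miR-877-3p and miR-1982-3p the most frequent end was 1 nt short of it, with 46.1%, 40.0% and 62.45% of reads. miR-702-3p mostly ended 2 nt short (79.4% of 97 reads), which is where its annotated hairpin ends, so reads that run on could not match.

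Mir3062, Mir7034 and Mir1231 went against the pattern of their position. Mir3062 reads started at intron base 14 (92.3% of 52 reads). In Mir7034, 85.7% of reads started at intron base 44, and in Mir1231 the most frequent start was base 41 (34.8%), both between the 2 mature arms rather than on one of them. These hairpins meet the position rule, but most of their reads do not begin or end at a splice site.

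**Figure D1:**
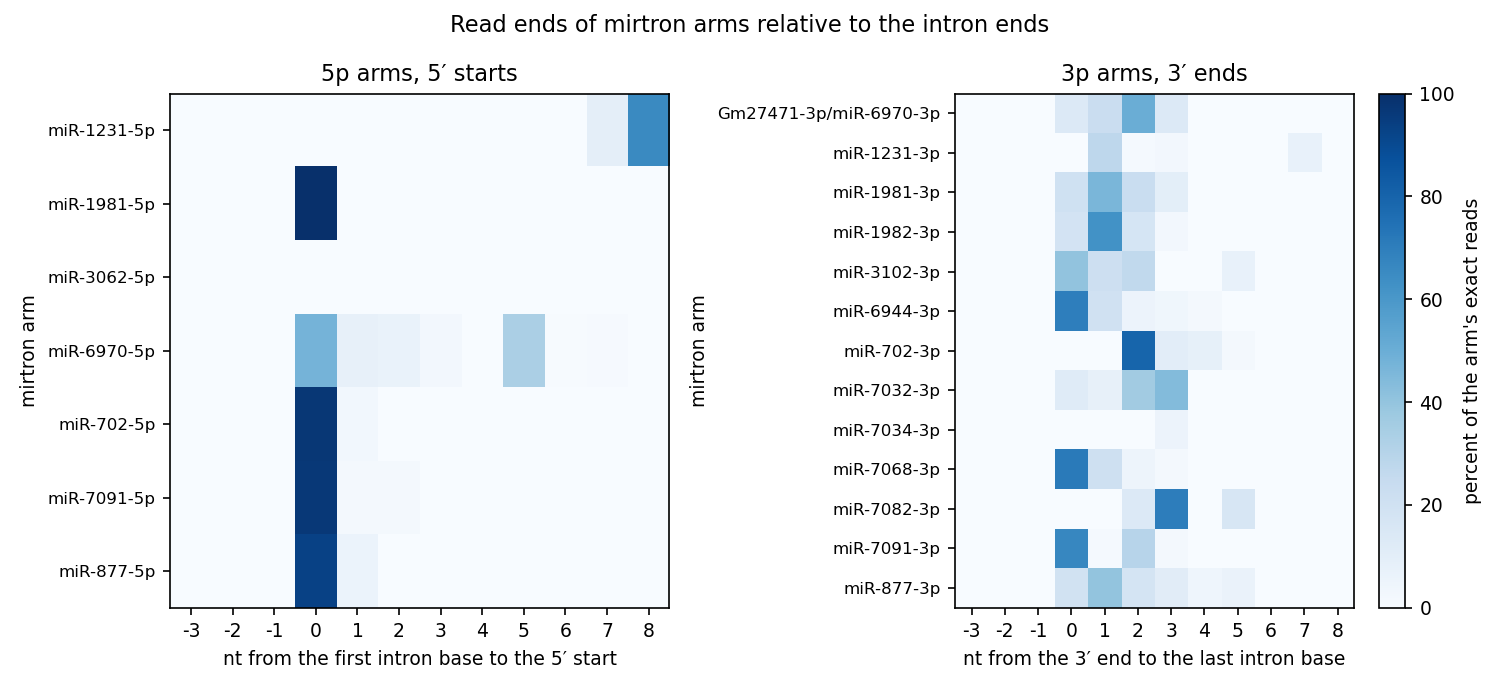
Percent of exact reads (colour) of each mirtron arm with at least 20 reads by the distance in nt of the 5′ start from the first intron base (left, 5p arms) and of the 3′ end from the last intron base (right, 3p arms), over all libraries. The 5p arms of Mir1981, Mir877, Mir702 and Mir7091 fill the column at 0, and most 3p arms end 0 to 3 nt from the acceptor, whereas the arms of Mir3062, Mir1231 and Mir7034 lie mostly outside these columns.

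A large part of the mirtron 3p reads carried added bases that the annotated hairpin does not encode. Counted were reads that match an arm and then end in 1 to 3 further A or T which the hairpin does not hold. For miR-7068-3p there were 14670 such reads beside 2788 exact ones in the same 5′ window, so 84.0% of its reads were tailed. The commonest forms show it, the capital being the added base: the exact read was seen 1908 times, with an added T 7861 times and with an added A 3613 times.
exact: tcaccctggactgactctcag
with T: tcaccctggactgactctcagT
with A: tcaccctggactgactctcagA
The exon that follows starts with GCT, so neither added base would come from the unspliced transcript. The tails of this arm followed the last intron base in 98.55% of cases. Tails of T alone made up 64.85% and of A alone 27.6%, whereas a single added C was seen in 81 reads and a single added G in 41.

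Other mirtron 3p arms carried tails as well. The tailed share was 87.7% in miR-7091-3p (939 of 1071 reads), 69.8% in miR-877-3p (3431 tailed and 1483 exact reads), 63.0% in miR-6944-3p and 53.1% in miR-702-3p. The Mir702 hairpin ends 2 nt before its intron does, so the first added bases of miR-702-3p, 40 of them a single A, could be encoded by the intron. The tailed share was 37.0% in miR-3102-3p, 25.55% in miR-1981-3p and 23.6% in miR-1982-3p. It was lower in the sparser 3p arms, at 13.95% in miR-7082-3p and 13.8% in miR-7032-3p. The 3p arm shared by Mir6970 and Gm27471 had 9.76%, miR-7034-3p 2.33% and miR-1231-3p 0%. The downstream exon of Mir7091 starts with AAT, so its 29.2% of tails made of A alone could also be read from unspliced RNA; its 607 single T tails could not. In miR-877-3p only 27.7% of the tails followed the last intron base, and the 2 commonest sat 1 nt before it.
miR-6944-3p, 256 reads: taactcttcccttgtgccctcagT
miR-7091-3p, 607 reads: agtggcttctgtcgtctctagT
miR-877-3p, 397 reads: tgtcctcttctccctcctcccaT
miR-877-3p, 362 reads: tgtcctcttctccctcctcccaTT

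Among 287 3p arms of all hairpins with at least 100 reads, miR-7091-3p ranked 12th, miR-7068-3p 16th, miR-877-3p 31st and miR-6944-3p 38th by tailed share. The 100 reads include tailed ones, and miR-3102-3p (80 exact, 47 tailed) and miR-702-3p (97 exact, 110 tailed) passed only with them. The sparser mirtron 3p arms, with lower shares, are left out. The median over the 8 mirtron 3p arms with enough reads was 58.1% (quartiles 34.1 and 73.4%), against 21.5% over the 279 others (8.15 and 41.6%). Hairpins with only 1 end at an intron end had 63.0% over 34 3p arms, so the high share was not particular to hairpins that fill the intron. On 5p arms the medians were 18.4% over 5 mirtron arms, 18.5% over 30 arms of hairpins with 1 end at an intron end and 7.26% over 275 arms of all non-mirtron hairpins. miR-877-5p was the most tailed of the mirtron 5p arms with at least 100 reads, at 40.8%, and ranked 13th of 280. In every library the summed mirtron 3p arms were tailed in 65.8 to 79.8% of reads. Over 106 other 3p arms with at least 50 reads in each library, the median share was 16.7 to 26.3%. With the reads of these other arms summed it was 19.6 to 32%. The mirtron sum is led by miR-7068-3p, with 17458 tailed and exact reads beside 4914 of miR-877-3p. These classes were described and not tested. The 3′ adapter named in the labels begins with T, so a remaining adapter base would read as a T tail; its part was not tested.

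The tailed share of miR-7068-3p was lowest under LPS in each of the 4 cultures. In wild-type dendritic cells it was 86.5% unstimulated, 81.2% with LPS, 84.8% with oxLDL, 87.9% with eLDL and 83.1% with LDL. The knockout dendritic cells had 88.9, 71.4, 83.2, 88.0 and 80.0% in the same order. Wild-type macrophages had 91.2, 73.5, 84.6, 81.9 and 89.5%, and knockout macrophages 89.2, 79.1, 80.5, 85.8 and 87.8%. In the same libraries the median of other 3p arms was higher with LPS than unstimulated in dendritic cells of both genotypes (26.3 and 19.6% for wild type, 25.8 and 23.1% for knockout) and in wild-type macrophages (17.3% unstimulated), and lower in knockout macrophages (18.9 and 20.6%). In macrophages miR-877-3p was also least tailed under LPS, at 57.9% against 66.8 to 79.0% in the other wild-type libraries and at 62.2% against 65.3 to 77.2% in the other knockout libraries. In knockout dendritic cells it went the other way, with LPS the highest at 78.7% against 62.0 to 76.9%, from 10 exact and 37 tailed reads. No test was made of these LPS values, which come from 1 library each.

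Between cell types the tailed share was tested over the 10 pairs of libraries with the same genotype and stimulus. It was lower in macrophages for miR-1981-5p, at 12.9% ± 1.49 against 15.8% ± 1.81 in dendritic cells (SD over 10 libraries that differ in genotype and stimulus), with 1 pair going the other way (two-sided exact permutation test, p = 0.00586, adjusted p = 0.021). For miR-7068-3p (84.3% ± 5.56 against 83.5% ± 5.22), miR-877-5p (40.7% ± 3.82 against 40.7% ± 6.24) and miR-1981-3p (25.9% ± 9.25 against 25.6% ± 8.36) the differences were smaller than the spread (exact permutation test, adjusted p from 0.761 to 0.984). Thus 1 of 4 mirtron arms was called, where 39.5% of the 215 arms tested were.

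**Figure D2:**
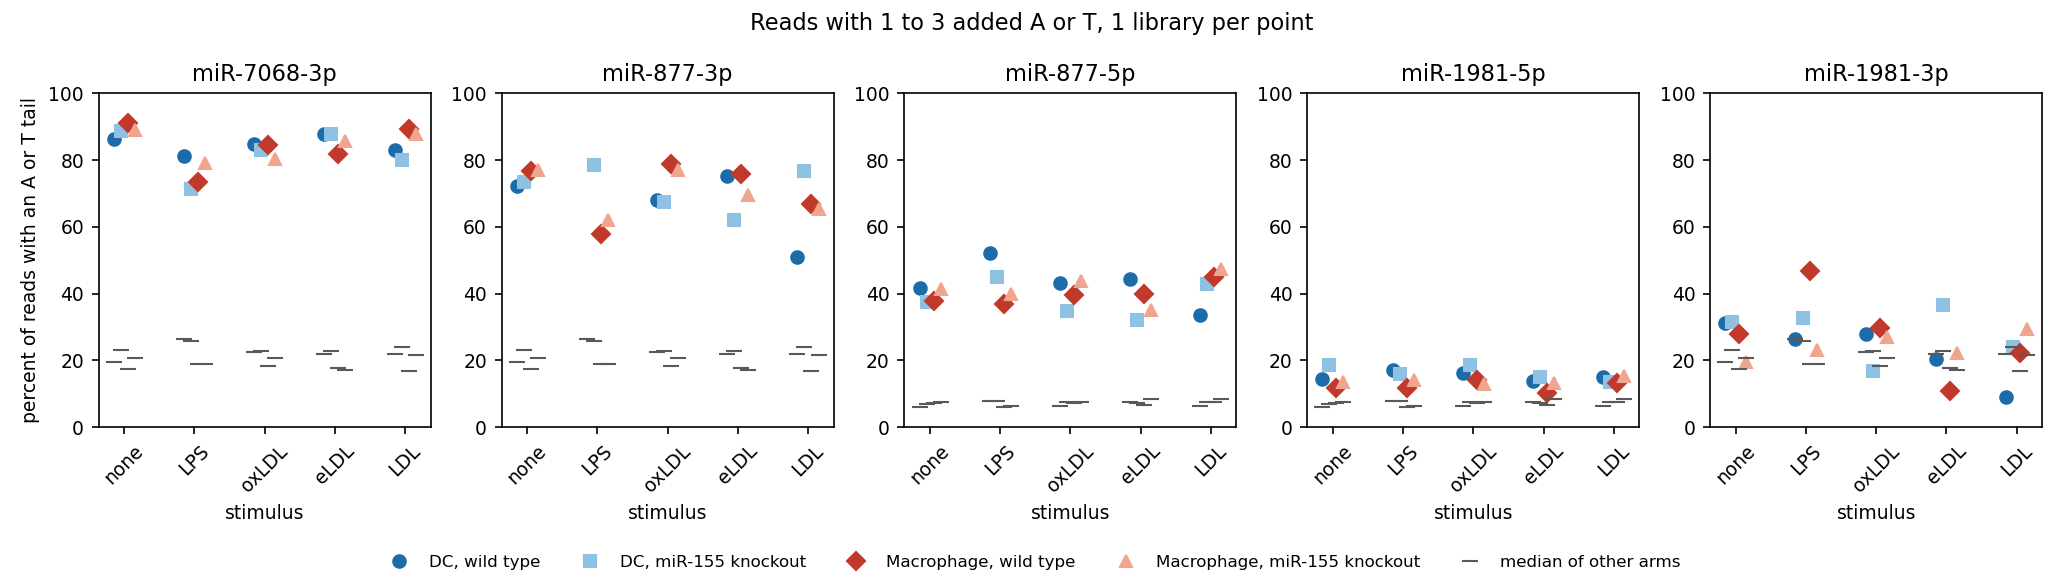
Percent of reads with 1 to 3 added A or T for 5 mirtron arms by stimulus, with 1 point per library coloured by culture (under 20 reads in wild-type dendritic cells with LPS leave out 1 point of miR-877-3p); grey dashes give the median over the other 5p or 3p arms in the same library. miR-7068-3p lies at 71.4 to 91.2%, far above the grey dashes, with its lowest point of each culture under LPS, and miR-1981-5p at 10.1 to 18.7%.

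Levels of the mirtrons were higher in macrophages than in dendritic cells, led by Mir1981 and Mir877. Summed over the 15 hairpins, dendritic cell libraries had 209 to 351 CPM (median 313) and macrophage libraries 404.5 to 594 CPM (median 468.5), with no overlap. In such bulk libraries, fewer cells of a type and less RNA per cell cannot be told apart. The 2 lowest values were those of dendritic cells with LPS, 209 CPM for wild type, then 225 CPM for knockout. These sums are scaled by total hairpin reads. On that scale the median log2 change of all tested arms with LPS in dendritic cells was -0.47. Lower values there were thus not particular to the mirtrons. Testing needed 5 CPM in at least 2 libraries, which 380 arms of all hairpins and 5 of the 25 detected mirtron arms reached: both arms of Mir1981 and Mir877, and miR-7068-3p. Each of these 5 reached the limit in libraries of both cell types. Other arms may pass only through the group where they are high, which favours a call. Arms under the limit were not tested, so the counts below describe these 5 arms and not the 15 hairpins. Each change is a log2 ratio ± its standard error from edgeR's quasi-likelihood test, adjusted over all 380 arms by Benjamini-Hochberg and called at 0.05. A cell type difference is the average over genotypes and stimuli, unstimulated cells included.

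miR-1981-5p was the most abundant mirtron arm, at rank 102 of all arms by mean CPM. Listing unstimulated first, then LPS, oxLDL, eLDL and LDL, it had 226, 163, 257, 233.5 and 206 CPM in wild-type dendritic cells and 249.5, 160, 198, 189.5 and 225 CPM in knockout dendritic cells. Wild-type macrophages had 312, 379, 366, 443 and 337 CPM, and knockout macrophages 279, 340, 331, 299 and 324 CPM. Every macrophage library was above every dendritic cell library. The difference was 0.81 ± 0.08 on the log2 scale (macrophages over dendritic cells, edgeR, adjusted p = 3.33e-08).

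miR-877-5p had 49.0, 20.9, 53.3, 56.1 and 52.9 CPM for wild-type, then 54.8, 26.5, 56.3, 51.2 and 47.9 CPM for knockout dendritic cells, in the same order. The macrophages had 65.0, 71.2, 53.05, 83.2 and 70.0 CPM for wild type, then 75.45, 72.9, 61.5, 64.0 and 74.2 CPM for knockout. The 2 cell types overlapped through the wild-type macrophages with oxLDL, and the LPS-treated dendritic cells stood alone at the bottom. The cell type difference was 0.73 ± 0.08 (edgeR, adjusted p = 3.7e-07).

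miR-877-3p was counted in 40, 8, 45, 33 and 70 exact reads for wild-type, then 39, 10, 63, 27 and 30 for knockout dendritic cells. Macrophages had 53, 139, 88, 71 and 205 reads for wild type, then 84, 185, 76, 112 and 105 for knockout. As CPM this was 0.902 to 9.90 in dendritic cells and 7.34 to 23.5 in macrophages, with overlap. Averaged over genotypes and stimuli, it had the largest cell type difference of the 5 tested arms, 1.78 ± 0.18 (edgeR, adjusted p = 7.63e-08). The LPS libraries were the furthest apart, with 0.902 CPM in dendritic cells and 17.4 CPM in macrophages for wild type, then 0.935 and 23.5 CPM for knockout. Unstimulated, the values were 5.745 and 7.34 CPM for wild type, then 4.63 and 8.89 CPM for knockout.

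miR-7068-3p had 96, 107, 113, 52 and 120 exact reads for wild-type, then 90, 220, 149, 89 and 116 for knockout dendritic cells. Macrophages had 44, 206, 159, 139 and 174 reads for wild type, then 134, 268, 250, 147 and 115 for knockout. In CPM the lowest library was the unstimulated wild-type macrophages (6.10) and the highest the knockout macrophages with LPS (34.0). The cell type difference was 0.49 ± 0.15 (edgeR, adjusted p = 0.00606), and with upper-quartile scaling, which shifts the median of all arms from 0.10 to -0.26, it was 0.13 (adjusted p = 0.42).

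miR-1981-3p had 84, 75, 95, 51 and 102 reads for wild-type, then 120, 72, 125, 47 and 54 for knockout dendritic cells, and 57, 50, 113, 107 and 108 for wild-type, then 111, 110, 102, 63 and 99 for knockout macrophages. It was not called between the cell types (0.23 ± 0.19, edgeR, adjusted p = 0.263). Thus 4 of the 5 tested arms were called between the cell types, where 78.9% of all arms tested were; all 4 were higher in macrophages, as were 42.4% of all arms, with 36.6% lower. Over all arms that is 161 higher and 139 lower, and with upper-quartile scaling 119 and 180. The median over the 5 arms was 0.73, beside 0.10 over all tested arms.

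**Figure D3:**
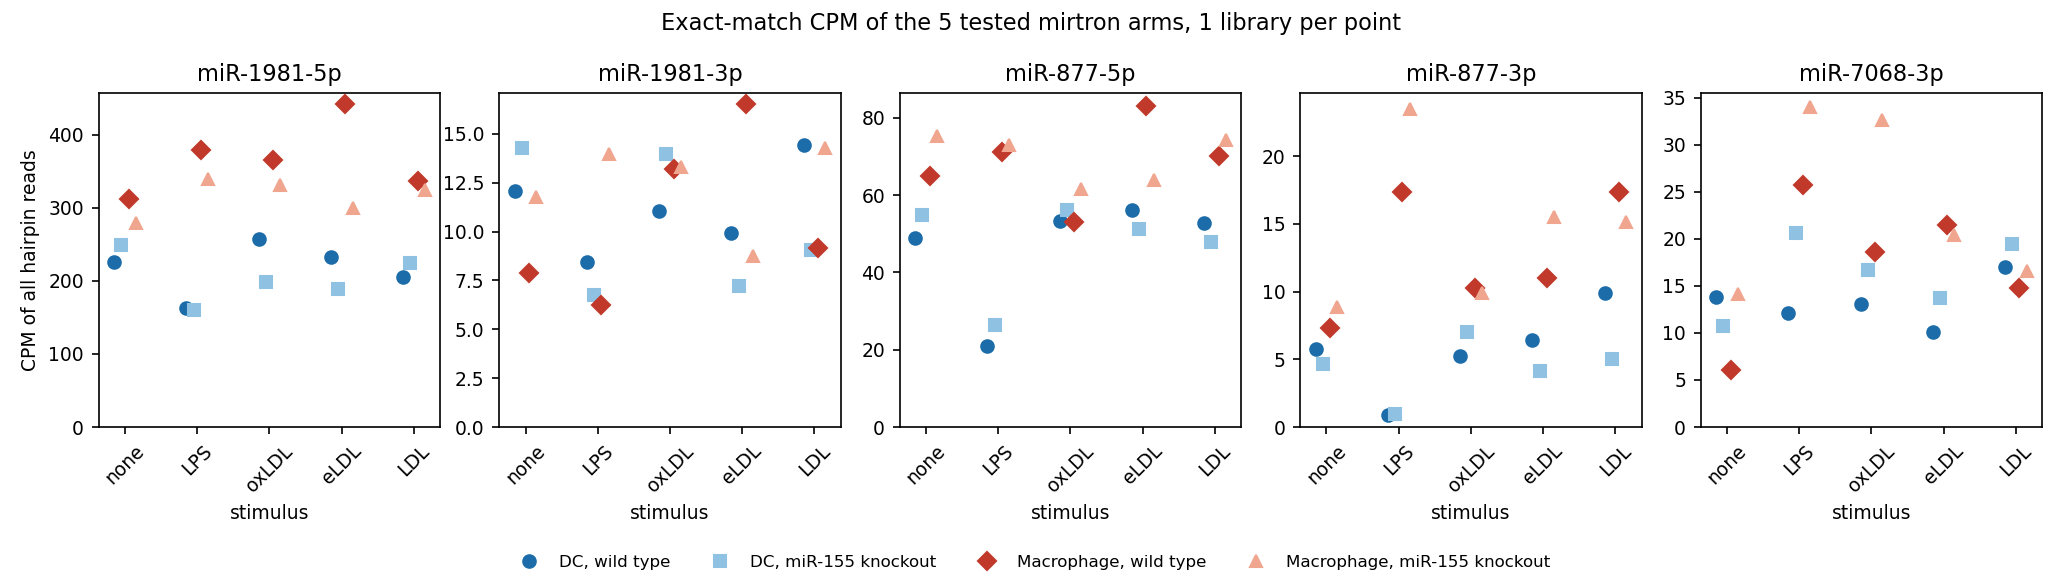
CPM of hairpin reads (exact matches) of the 5 tested mirtron arms by stimulus, with 1 point per library and a separate linear axis per arm. miR-1981-5p lies at 160 to 257 CPM in dendritic cells and 279 to 443 CPM in macrophages, and both miR-877 arms are lowest in dendritic cells with LPS.

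The arms of a hairpin did not differ between the cell types by the same amount. The 5p share of exact Mir877 reads was 91.1% ± 3.54 in dendritic cells and 83.7% ± 4.69 in macrophages (SD over 10 libraries), lower in macrophages in all pairs but 1 (two-sided exact permutation test, p = 0.00391, adjusted p = 0.0328). The size varied with the stimulus. Unstimulated cells had 89.5% in dendritic cells and 89.85% in macrophages for wild type, then 92.2 and 89.5% for knockout. With LPS the values were 95.85 and 80.4% for wild type, then 96.6 and 75.6% for knockout. For Mir1981 the 5p share went the other way, from 95.2% ± 1.07 to 96.7% ± 0.844, higher in macrophages in 9 of 10 pairs (exact permutation test, adjusted p = 0.0352). Both hairpins with enough reads were called, where 20.6% of the 126 hairpins tested were. Tailed reads weigh on these shares: over all libraries the 3p arm was 14.0% of Mir877 with exact reads alone and 24.2% with tailed reads, and 42.2 and 82.9% of Mir7091. Mir7068 gave almost only 3p reads, 99.8% of its exact reads.

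LPS, the bacterial lipopolysaccharide that activates Toll-like receptor 4, was followed by less miR-877 in dendritic cells. miR-877-3p fell by 2.07 ± 0.45 in log2 units (adjusted p = 0.00275) and miR-877-5p fell by 0.74 ± 0.19 (edgeR, adjusted p = 0.00679), each over the wild-type and the knockout pair. In both pairs the LPS library was lower, with 8 against 40 and 10 against 39 reads of the 3p arm. The other 3 arms were not called: miR-1981-5p at -0.17 ± 0.17, miR-1981-3p at -0.41 ± 0.42 and miR-7068-3p at 0.76 ± 0.33 (edgeR, adjusted p from 0.12 to 0.539). So 2 of 5 mirtron arms were called, where 21.6% of all arms were (9.47% higher and 12.1% lower). Over all arms 36 were higher and 46 lower, against 27 and 124 with total-read scaling, which moves the median of all arms from -0.08 to -0.47 and puts miR-1981-5p at -0.56 (adjusted p = 0.0142), and against 60 and 49 with DESeq2, which called miR-7068-3p (0.86, adjusted p = 0.0434). The call of miR-877-5p ended with tailed reads added (-0.54, adjusted p = 0.0682) or with no filter (-0.58, adjusted p = 0.135), and without the wild-type LPS library (-0.64, adjusted p = 0.0947) or the unstimulated knockout library (-0.67, adjusted p = 0.0666).

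In macrophages the same stimulus was followed by more exact miR-877-3p and miR-7068-3p reads. miR-7068-3p rose by 1.64 ± 0.34 (edgeR, adjusted p = 0.00204) and miR-877-3p by 1.36 ± 0.37 (adjusted p = 0.015), while miR-877-5p was at 0.07 ± 0.18 (adjusted p = 0.822). That is 2 of 5 arms, where 18.4% of all arms were called (12.1% higher and 6.32% lower; 46 and 24 arms, and 51 and 41 with DESeq2). Both calls rest on exact reads: with tailed reads added, miR-7068-3p was at 0.37 (adjusted p = 0.265) and miR-877-3p at 0.53 (adjusted p = 0.399). The tailed reads of miR-7068-3p were 458 unstimulated and 570 with LPS in wild-type macrophages and 1104 and 1013 in knockout macrophages, while the exact reads went from 44 to 206 and from 134 to 268. Without the unstimulated wild-type library, miR-7068-3p was at 1.25 (adjusted p = 0.0523). For miR-877-3p the call also ended without that library (1.30, adjusted p = 0.112), without the unstimulated knockout library (1.43, adjusted p = 0.0691) and without the knockout LPS library (1.16, adjusted p = 0.131), and with tags of 20 to 24 nt only (0.76, adjusted p = 0.258) or no filter (1.20, adjusted p = 0.0825).

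The response of miR-877-3p to LPS differed between the cell types. The LPS effect was larger in macrophages by 3.43 ± 0.59 on the log2 scale (edgeR interaction, adjusted p = 0.00106), and with tailed reads by 2.88 (adjusted p = 0.00777). For miR-877-5p the difference was 0.82 ± 0.26 (adjusted p = 0.0492), and it was not called with tailed reads added (0.54, adjusted p = 0.245). The call of miR-877-5p was also lost when any 1 of 17 of the 20 libraries was left out (0.69 to 0.95, adjusted p up to 0.168). These 2 of 5 arms stand beside 12.4% of all arms (7.89% higher and 4.47% lower; 30 and 17 arms, against 82 and 13 with total-read scaling, where the median moves from 0.14 to 0.50 and miR-1981-5p is called at 0.84 with adjusted p = 0.0151, and 29 and 35 with DESeq2). The 3p share of exact Mir877 reads gives the contrast within the hairpin. It went from 10.5 to 4.15% in wild-type and from 7.80 to 3.41% in knockout dendritic cells. In macrophages it went from 10.2 to 19.6% in wild type and from 10.5 to 24.4% in knockout. LPS was not alone in this among macrophages: the share was 19.9% with LDL in wild type and 19.5% with eLDL in the knockout, and every stimulated macrophage library was above its unstimulated one. These shares leave out tailed reads. With them, miR-877-3p went from 31.6 to 41.25 CPM with LPS in wild-type macrophages, where oxLDL had 49.1 CPM. There miR-877-5p went from 104 to 113 CPM and had 87.9 CPM with oxLDL. In knockout macrophages the 3p arm went from 38.9 to 62.25 CPM with LPS and the 5p arm from 129 to 121 CPM.

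**Figure D4:**
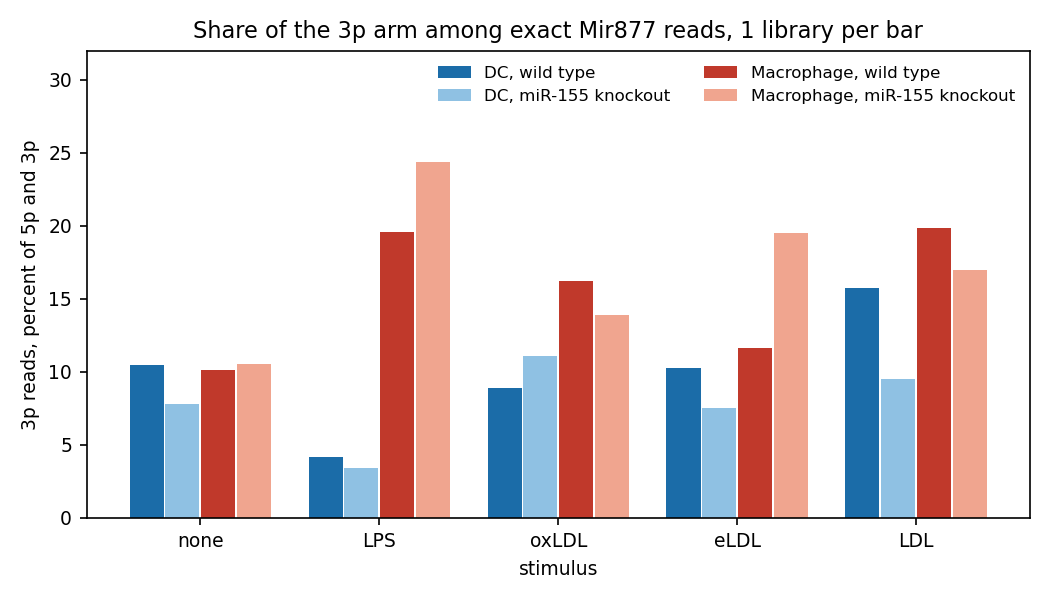
Share of 3p reads among exact Mir877 reads in percent by stimulus, with 1 bar per library and no error bars because each condition has 1 library. With LPS the 2 dendritic cell libraries are the lowest bars (3.41 and 4.15%) and the knockout macrophages the highest (24.4%).

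The lipoproteins (oxLDL, eLDL and LDL, fitted together against unstimulated cells) gave few calls on mirtron arms. In dendritic cells none of the 5 arms was called by edgeR or DESeq2, and 0 had an unadjusted p under 0.05; 0.526% of all arms were called, both of these 2 arms higher (5 higher and 2 lower with DESeq2, 0 and 1 with total-read scaling, 0 and 0 with upper-quartile scaling). In macrophages miR-7068-3p rose by 0.96 ± 0.29 (edgeR, adjusted p = 0.0367), 1 of 5 arms where 12.1% of all arms were called (5.79% higher and 6.32% lower; 22 and 24 arms, against 17 and 40 with upper-quartile and 37 and 20 with total-read scaling). That value depends on the low unstimulated wild-type library: without it the change was 0.56 (adjusted p = 0.466), and without the unstimulated knockout library it was 1.48 (adjusted p = 0.0231). The call ended too without the wild-type eLDL (0.89, adjusted p = 0.0669), wild-type LDL (0.92, adjusted p = 0.0718) or knockout oxLDL library (0.91, adjusted p = 0.0784), with tailed reads added (0.43, adjusted p = 0.128), upper-quartile scaling (0.78, adjusted p = 0.071), no filter (0.90, adjusted p = 0.0536) or tags of 20 to 24 nt (0.82, adjusted p = 0.106).

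Loss of miR-155 gave few calls on the tested mirtron arms. In dendritic cells no arm was called by edgeR or DESeq2, and 0 of 5 had an unadjusted p under 0.05, with 8.42% of all arms called (5.26% higher and 3.16% lower; 20 and 12 arms, and 11 and 20 with total-read scaling). The changes ran from -0.18 ± 0.26 for miR-877-3p to 0.39 ± 0.21 for miR-7068-3p. In macrophages miR-1981-5p fell by 0.30 ± 0.11 (edgeR, adjusted p = 0.0493), 1 of 5 arms where 25% of all arms were called (12.9% higher and 12.1% lower; 49 and 46 arms, against 105 and 34 with upper-quartile scaling). It was lower in the knockout in all 5 pairs, from 324 against 337 CPM with LDL, the smallest difference, to 299 against 443 CPM with eLDL, the largest. The call was lost in 16 of the 20 fits that left out 1 library (-0.37 to -0.24, adjusted p up to 0.176), and upper-quartile scaling, which moves the median of all arms from 0.04 to 0.26, gave -0.08 (adjusted p = 0.563) and called miR-7068-3p (0.63, adjusted p = 0.0233). Total-read scaling gave -0.22 for miR-1981-5p (adjusted p = 0.148).

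Tailed reads brought miR-6944-3p, miR-6970-5p and miR-7091-3p over the limit for testing, 8 mirtron arms in all. miR-6944-3p and miR-6970-5p reached 5 CPM in macrophage libraries only, so their calls between cell types were favoured by the filter and are given here as levels. With tailed reads miR-6944-3p had 0.0935 to 4.48 CPM in dendritic cells, 1.88 to 5.96 CPM in wild-type macrophages and 6.24 to 13.7 CPM in knockout macrophages. Its tailed and exact reads together were 16, 15, 51, 21 and 33 for wild-type, then 59, 99, 105, 91 and 76 for knockout macrophages; the filter was passed mainly through the knockout libraries. miR-6970-5p had 0.425 to 1.90 CPM in dendritic cells and 1.11 to 6.09 CPM in macrophages. miR-7091-3p was at -0.38 between the cell types (edgeR, adjusted p = 0.121).

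The sparse mirtrons gave few reads per library, and several were counted mostly in macrophages. miR-6944-3p had 0, 1, 6, 0 and 1 exact reads for wild-type, then 4, 0, 6, 9 and 4 for knockout dendritic cells, and 13, 6, 30, 8 and 22 for wild-type, then 9, 52, 32, 23 and 27 for knockout macrophages. Counting starts within 2 nt of intron base 1 only, miR-6970-5p had 1, 2, 10, 5 and 3 and then 16, 6, 4, 11 and 4 reads in dendritic cells. In macrophages it had 8, 16, 29, 28 and 47 and then 7, 26, 23, 36 and 25. miR-3102-3p had 2 reads in the 10 dendritic cell libraries, both in 1 of them, and 78 reads over the macrophages, where every library had at least 1. Mir7082 had 0 reads in dendritic cells, which allows up to 3 over the 10 libraries, and 37 reads in 8 macrophage libraries. Mir1231 and Mir3062 went the other way. Mir1231 had 78 reads in dendritic cells and 37 in macrophages. Mir3062 had 34 reads, in 3 dendritic cell libraries, and 18 in macrophages.

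Other sparse mirtrons had like numbers in both cell types. miR-1982-3p had 21, 3, 7, 5 and 10 and then 12, 25, 29, 9 and 10 reads in dendritic cells, and 14, 13, 6, 8 and 15 and then 15, 22, 1, 13 and 11 in macrophages. miR-702-5p had 2, 3, 15, 3 and 0 and then 29, 23, 12, 16 and 6 reads in dendritic cells, and 25, 5, 9, 8 and 12 and then 17, 3, 5, 11 and 11 in macrophages. miR-7091-5p had 19, 3, 21, 5 and 3 and then 12, 0, 0, 3 and 20 reads in dendritic cells, and 2, 16, 2, 6 and 7 and then 16, 0, 20, 17 and 9 in macrophages. Over the 10 libraries of each cell type (dendritic cells first) these 3 arms totalled 131 and 118, 109 and 106, and 86 and 95 reads.

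The partner arm of miR-702-5p was different. miR-702-3p had 14 reads in dendritic cells and 83 in macrophages, unlike miR-702-5p with 109 and 106. miR-7091-3p, with 61 and 71 exact reads, was like its partner in this, and its tailed reads were 10 to 92 per library. With the limit for testing lowered to 1 CPM in 2 libraries, 17 mirtron arms were tested. miR-3102-3p and miR-702-3p passed through macrophage libraries only, with at most 0.223 and 0.922 CPM in any dendritic cell library, and miR-6944-3p passed with 1 dendritic cell library above the limit, so their calls as higher in macrophages are not read as support. miR-6970-5p, above 1 CPM in 3 dendritic cell libraries, was higher in macrophages by 1.99 (edgeR, adjusted p = 0.000479). That value leaves out its reads that start at base 6. With starts at any base kept, the change was 1.29 at the 5 CPM limit, which the arm passed through macrophage libraries only. The whole Mir6970 hairpin had 161 reads in dendritic cells and 368 in macrophages.

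**Figure D5:**
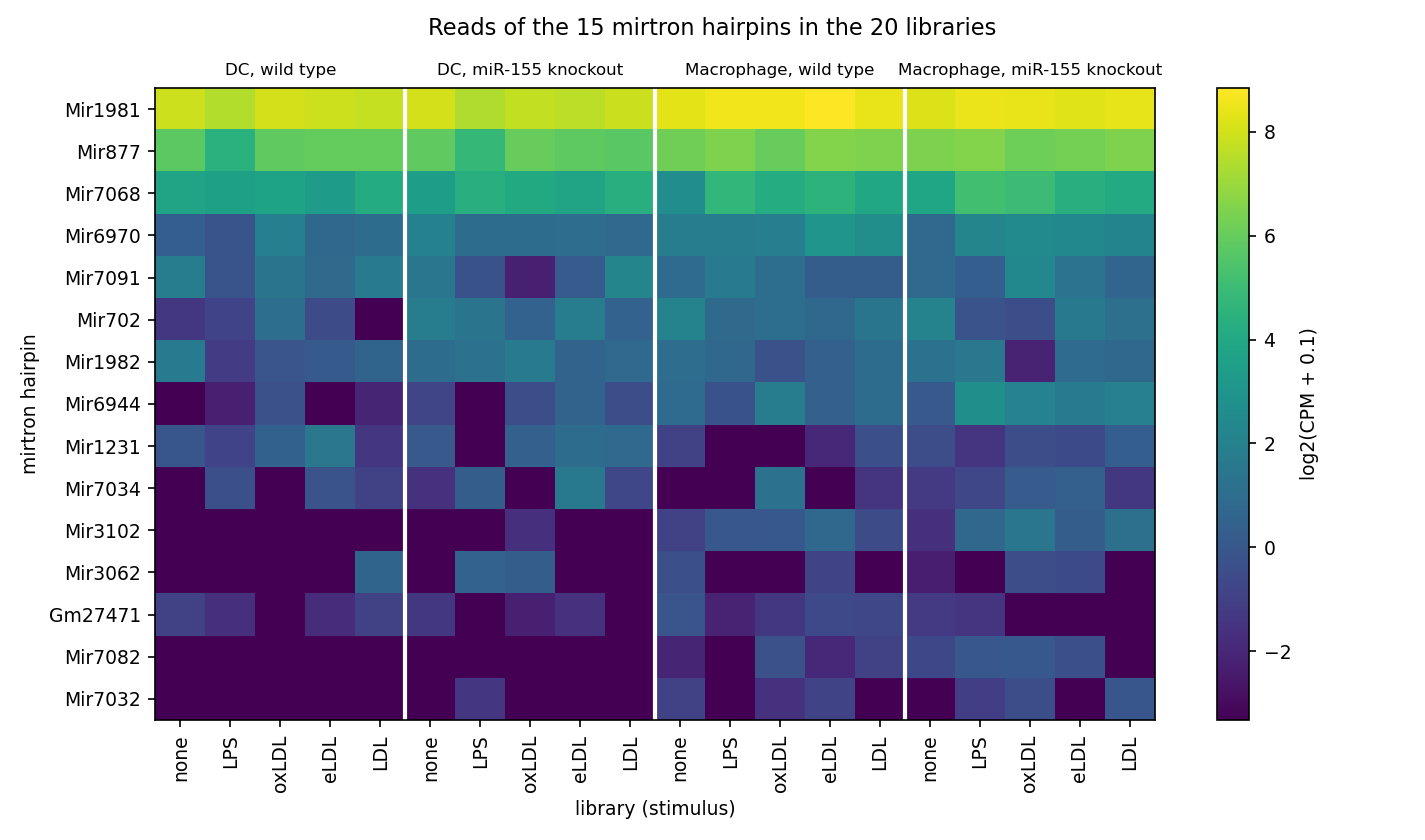
Level of each of the 15 mirtron hairpins (rows, by mean CPM) in the 20 libraries (columns, by culture and stimulus) as log2 of CPM plus 0.1, with the darkest cells at 0 reads. Mir1981, Mir877 and Mir7068 are present in every library, Mir3102 in 1 of 10 dendritic cell and 10 of 10 macrophage libraries, and Mir7082 in 0 and 8.

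The limits of the rule cut through a continuum. Just inside 20 reads are Mir7032 (25) and Mir7082 (37), and just outside it Mir7060 (17) and Mir6981 (16). Mir1224, a mirtron of Vwa5b2, had 5 reads over all libraries and is not a member. On distance, Mir7032 has its 5′ end 8 nt and Mir702 its 5′ end 9 nt from the intron start, while Mir5132 in Irak1 (a kinase of the Toll-like receptor pathway) at 11 nt had 1519 reads and Mir7046 in Rabac1 at 11 nt had 41.

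A list of miRNAs made without Drosha or by other non-canonical routes (miR-320-3p, miR-484, miR-1839-5p, miR-664-3p and miR-451a, the last made by Argonaute 2 in place of Dicer) is set beside the mirtrons. Between cell types 2 of the 5 were called, where 78.9% of all arms were (36.6% lower). Both were lower in macrophages: miR-664-3p by -0.79 ± 0.22 (edgeR, adjusted p = 0.00405) and miR-320-3p by -0.16 ± 0.07 (adjusted p = 0.0405). With LPS in dendritic cells 1 of 5 was called, where 21.6% of all arms were: miR-484, which fell by 1.01 ± 0.18 (edgeR, adjusted p = 0.000685). In knockout against wild-type macrophages 1 was higher and 1 lower, where 25% of all arms were called. These were miR-1839-5p at 0.36 ± 0.11 (edgeR, adjusted p = 0.0186) and miR-320-3p at -0.30 ± 0.09 (adjusted p = 0.0282). None of the list was called in the other comparisons. No test compared this list with the mirtrons.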

How the data were processed

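Small RNA reads were measured in 20 libraries, per the labels. The deposited values are whole-number read counts of distinct sequences, 18 to 45 nt long, in 1 file per library. Per the submitters' processing notes CASAVA 1.8.2 was used, for a step they do not state; the sources used here name no trimming tool or genome build.

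Sequences of 18 to 26 nt were matched exactly to 1180 GENCODE M21 (GRCm38) hairpins: the 1178 named miRNA models plus 2 unnamed ones that meet the position rule. Arms were split at the RNAfold 2.7.2 loop, starts kept within 2 nt of the commonest 5′ end, and shared reads divided. Tails are 1 to 3 untemplated A or T.

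After TMM scaling the counts entered edgeR's quasi-likelihood model (version 4.0.16, R 4.3.3; culture plus stimulus within cell type; robust) and adjusted by Benjamini-Hochberg at 0.05. With 1 library per condition, the scatter between genotype pairs stands in for replicates. The script was tested on simulated data. DESeq2 1.42.0, other scalings, filters, tag rules and left-out libraries were alternatives. Shares were compared by two-sided exact sign-flip permutation over 10 pairs (smallest p 0.00195).

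Named arms are the 12 most abundant member arms, every called member arm, both arms of miR-877 and miR-1224 where detected, members next to the limits, miR-155-5p and a list of non-canonical miRNAs. Members, lists and rules were chosen with earlier results of these data known. A count of 0 allows 3 reads; such limits and intervals cover counting error only, as reads are PCR copies without molecular identifiers.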

Additional observations from a re-analysis of the deposited data

Results flagged for a closer look

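The LPS effect of miR-877-3p differed between macrophages and dendritic cells by 3.43 ± 0.59 on the log2 scale (edgeR interaction, adjusted p = 0.00106): the arm was lower with LPS in both dendritic cell pairs and higher in both macrophage pairs. For miR-877-5p the difference was 0.82 ± 0.26 (edgeR, adjusted p = 0.0492), with a lower value in both dendritic cell pairs and macrophage values of 65.0 and 71.2 CPM in wild type and 75.45 and 72.9 CPM in knockout. This second difference was called in 2 of 11 alternatives (0.50 to 1.17, adjusted p up to 0.808) and in 3 of 20 fits that left out 1 library.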

How the results depend on the processing

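Of 97 values of the main results under alternatives other than left-out libraries, 70 stayed the same, as did 118 of 160 with 1 library left out. For shares this means the same direction and call, and for counts of hairpins or called arms a number within 1.5 times. Such a count does not follow which arm is called. For genotype in macrophages, upper-quartile scaling called miR-7068-3p in place of miR-1981-5p and still counts as the same. For LPS in dendritic cells 1 mirtron arm was called with no filter and with tailed reads. For LPS in macrophages it was 1 with no filter and with tags of 20 to 24 nt, and 0 with tailed reads. For the difference in LPS effect it was 1 with upper-quartile scaling, without robust dispersion, with either wider filter, tags of 20 to 24 nt, shared reads left out, no 5′ window, tailed reads or DESeq2. For lipoproteins in macrophages it was 0 with upper-quartile scaling, no filter, tags of 20 to 24 nt or tailed reads, and for genotype in macrophages 0 with total reads, without robust dispersion or without the 5′ window, and 2 with tailed reads. Between cell types 8 arms were called with a filter of 1 CPM and 9 with none, the added arms passing mostly through macrophage libraries. Leaving out 1 library gave 1 to 2 called arms for LPS in dendritic cells, 0 to 2 in macrophages, 1 to 2 for the difference, 0 to 1 for lipoproteins and for genotype in macrophages, and 4 in each fit between cell types. There were 9 member hairpins with ends within 3 nt and 9 with at least 100 reads. With tails of 1 nt only, the tailed share of miR-1981-3p differed by -0.331 percentage points in place of 0.277, both uncalled. Over all arms, total reads gave 151 calls in place of 82 for LPS in dendritic cells and 95 in place of 47 for the difference, and DESeq2 gave 7 in place of 2 for lipoproteins in dendritic cells. Leaving out tags found in transcripts of other genes, chosen after seeing the data, changed no member call. The alternative of tags unique in the genome was not run, since no genome sequence was used here. No fit with a replicate block was run, since the labels carry no replicate numbers; libraries matched on genotype and stimulus were paired in the tests of tailed and arm shares. Causes of these changes were not tested. Depth limits the 20 mirtron arms that did not reach 5 CPM in at least 2 libraries, for which 3 reads are 0.254 to 0.584 CPM.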
